A study of Mus musculus with 90 samples.

Results

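Iron handling genes of the mouse liver are the 10 genes *Hamp*, *Hamp2*, *Tfrc*, *Tfr2*, *Slc40a1*, *Fth1*, *Ftl1*, *Trf*, *Hfe* and *Bmp6*. They were given as a list of names and make up 10 of the 27654 genes in the deposited tables. Hepatocytes secrete hepcidin, the peptide encoded by *Hamp*, and hepcidin removes the iron exporter ferroportin (*Slc40a1*) from cell surfaces, so that less iron enters the blood. The hepatocyte senses iron through BMP6, which comes mostly from the sinusoidal endothelium, and through HFE and the transferrin receptor TFR2. It takes up iron bound to transferrin (*Trf*) through receptors such as TFRC and stores it in ferritin, built from the heavy and light chains encoded by *Fth1* and *Ftl1*.

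The study asked how the glucocorticoid receptor (GR, encoded by *Nr3c1*) takes part in the liver's response to caloric restriction, with polyA RNA-seq of 90 livers of adult male C57BL/6J mice on chow. In a time series, livers were taken at 6 time points, 4 h apart from ZT0 to ZT20, where ZT is zeitgeber time and lights went off at ZT12. GRfl/fl mice (here WT) were compared with GRfl/fl x Alb-Cre mice (GR LKO), in which Cre driven by the albumin promoter removes the receptor from hepatocytes and leaves it in other liver cells. The control diet was night restricted feeding in the final week, after earlier weeks of free access to food (42 libraries, 3 or 4 per group). For caloric restriction, food was given each day at ZT12, with calories lowered over weeks to an end point 40% below (36 libraries, 3 per group). A separate diet experiment held 3 WT livers on caloric restriction and 3 controls at ZT12, whose titles say AL while their treatment label says night restricted feeding. A corticosterone experiment held 3 WT livers at ZT12 from mice given daily injections of corticosterone into the abdomen for a week and 3 controls, labelled only as night restricted feeding and described in the methods as injected with vehicle oil. The mice of these last experiments carry the label WT with no floxed allele named.

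Total counts per library ran from 14235473 to 20788575 (median 17386700) for caloric restriction in the time series and from 10057544 to 17089004 (median 13427104) for its control diet. They ran from 36442195 to 39492146 (median 37407547) in the diet experiment and from 13739631 to 16077943 (median 14431388) in the corticosterone experiment. Values are CPM (counts relative to library size, after TMM scaling). A gene is called where the adjusted p (edgeR quasi-likelihood test, Benjamini-Hochberg over all genes tested) is below 0.05. In the time series each diet has its own library batch, so diet and batch cannot be told apart there and levels are not compared between the diets, except as an alternative for the diet experiment.

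*Nr3c1*, the deleted gene, checked the genotype labels. On caloric restriction it ranged from 69.9 to 112 CPM (median 93.6) in the 18 WT livers and from 21.3 to 32.0 CPM (median 24.9) in the 18 GR LKO livers. On the control diet it ranged from 71.9 to 119 CPM (median 87.2) in 22 WT livers and from 16.1 to 29.2 CPM (median 21.6) in 20 GR LKO livers. Each GR LKO liver lay below all WT livers of its diet and time, in 18 of 18 and in 20 of 20. The mean log2 change was -1.84 (SE 0.04, adjusted p = 1.012e-24) on caloric restriction, and on the control diet the level fell by a factor of 3.90 (adjusted p = 5.132e-26). Liver identity was clear from hepatocyte markers, of which *Alb* was the most abundant with a mean of 81454 CPM.

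A few libraries stood apart. Exocrine pancreas markers summed to 781 CPM in the WT liver replicate 3 at ZT12 on caloric restriction and to 525 CPM in the WT liver replicate 2 at ZT16 on the control diet, where *Amy2a5* was the most abundant of them over all libraries. Erythroid markers, led by *Hbb-bs*, summed to 3708 CPM in the GR LKO liver replicate 2 at ZT0 on caloric restriction, against a median of 404 over all libraries. The GR LKO liver replicate 1 at ZT20 on the control diet had the lowest correlation with its own group. Leaving these 4 libraries out was chosen after seeing the data, and its effect is given where it ends or adds a call.

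The members spanned a wide range of levels. Per kilobase of transcript, the time series medians were 5002 CPM for *Trf*, 3468 for *Ftl1*, 2791 for *Hamp* and 810 for *Fth1*. Next came *Tfr2* at 48.7, *Hamp2* at 41.98 and *Slc40a1* at 40.4 CPM per kilobase. *Hfe* at 13.1, *Tfrc* at 6.34 and *Bmp6* at 1.797 CPM per kilobase were the lowest of these medians over all groups. The order can differ within a group, as with corticosterone, where *Hamp2* had a mean of 5.715 and *Hfe* of 11.25 CPM per kilobase. The first group is thus plasma transferrin, ferritin and hepcidin, and the receptors and the ligand lie far below it. *Tfr2*, *Hamp2* and *Slc40a1* do not separate beyond their spread, since *Hamp2* alone ran from 2.59 to 1027 CPM per kilobase.

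All 10 members passed the filter on low counts in every comparison. With caloric restriction in the diet experiment 7 of 10 were called (6 up, 1 down), where 47.1% of all genes tested were called, and the members' median log2 change was 0.53 against -1.80188e-06 for all genes. With corticosterone 3 of 10 were called (2 up, 1 down) against 8.11% of all genes, with a median of 0.07 against -0.01. For the mean genotype effect over the day, 3 of 10 were called on caloric restriction (2 up, 1 down) against 32.9%, with a median of 0.01. Of the 10, 4 were called on the control diet, all up, against 18.6%, with a median of 0.07. The difference between the members' shares and those of all genes was not tested, and the members are taken singly below.

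The hepcidin gene *Hamp* and its copy *Hamp2* behaved differently. *Hamp2* is a mouse duplicate of *Hamp* whose product is not known to act on iron as hepcidin does. Their transcripts (410 and 437 bases) are 89.02% identical with a longest identical run of 87 bases, so the division of reads between them is uncertain. On caloric restriction *Hamp2* ranged from 4.79 to 43.7 CPM (median 15.1) in WT livers and from 26.3 to 449 CPM (median 255) in GR LKO livers. It ranged on the control diet from 1.13 to 13.5 CPM (median 4.78) in WT and from 12.5 to 56.4 CPM (median 21.9) in GR LKO. *Hamp2* was thus higher without hepatocyte GR on both diets, with 17 of 18 GR LKO livers above all WT livers of the time on caloric restriction and 20 of 20 on the control diet. The exception was the GR LKO liver replicate 1 at ZT0 on caloric restriction, at 26.3 CPM. The mean log2 change was 3.68 (SE 0.33, adjusted p = 1.142e-09) on caloric restriction and 2.37 (SE 0.23, adjusted p = 1.609e-09) on the control diet.

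The genotype effect on *Hamp2* was larger on caloric restriction by 1.32 on the log2 scale (SE 0.39, adjusted p = 0.0469), the 1 member called for this difference of 10, against 3.01% of all genes. That call sat at the threshold. It was lost without all libraries of replicate number 1 (adjusted p = 0.1834), 2 (0.3103) or 3 (0.08872), with no filter on low counts (0.06322) and without the 4 libraries that stood apart (0.05416). At ZT12 alone the difference was called by edgeR for 0 of 10 members against 1.01% of all genes, with 1 member below an unadjusted p of 0.05 and 1 called by DESeq2.

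**Figure D1:**
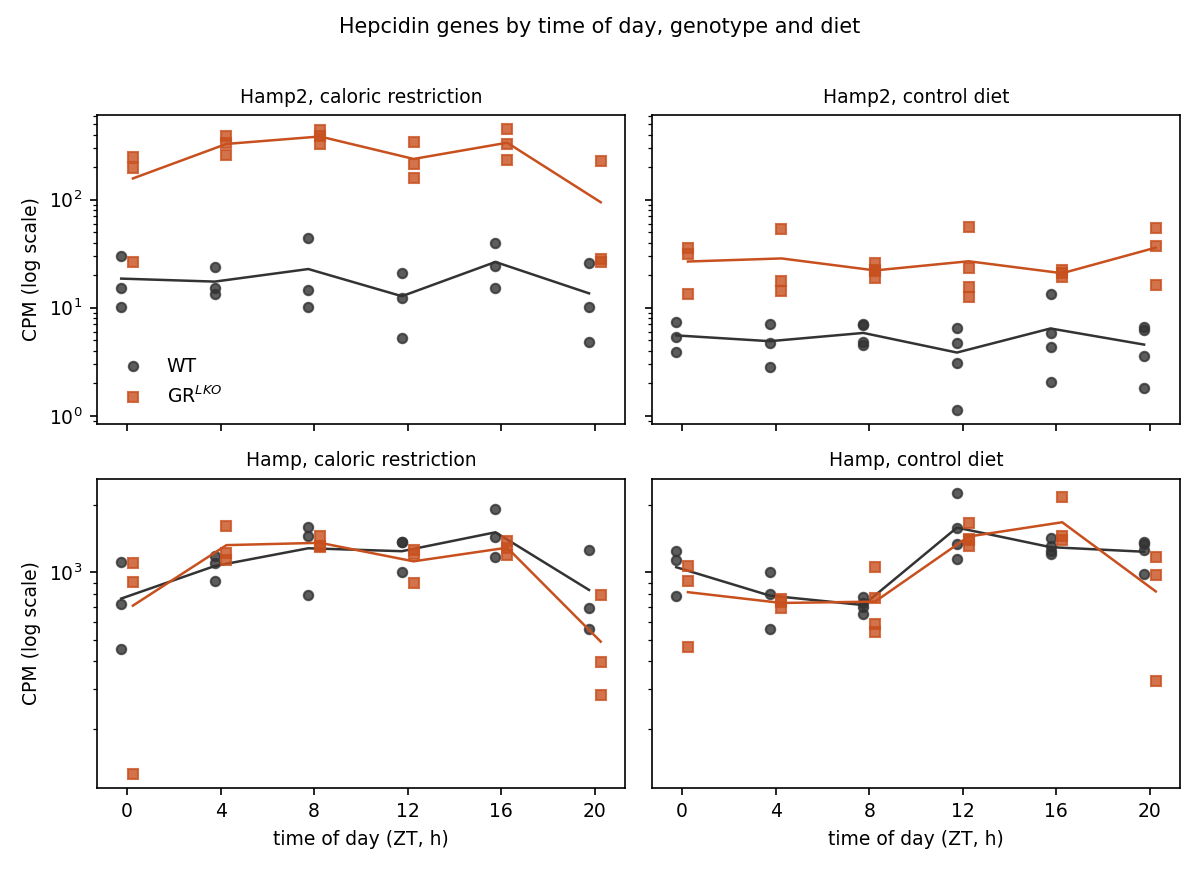
*Hamp2* and *Hamp* in CPM (log axes) against time of day (ZT, h) on each diet, with 1 point per liver and lines through the group means, in WT (dark circles) and GR LKO (orange squares). *Hamp2* separates by genotype, with medians of 15.1 and 255 CPM on caloric restriction and of 4.78 and 21.9 CPM on the control diet, while the *Hamp* values of the genotypes overlap.

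Time point by time point, *Hamp2* on caloric restriction was called at ZT4, ZT8, ZT12 and ZT16. At ZT4 it stood at 13.4, 23.7 and 15.2 CPM in WT and at 390, 260 and 333 CPM in GR LKO. At ZT8 it stood at 43.7, 10.2 and 14.5 CPM in WT and at 439, 328 and 385 CPM in GR LKO. Every GR LKO liver lay far above every WT liver at both times. The log2 changes were 4.23 (SE 0.26, adjusted p = 0.002422) at ZT4, 4.08 (SE 0.53, adjusted p = 0.01274) at ZT8, 4.20 (SE 0.51, adjusted p = 0.00256) at ZT12 and 3.68 (SE 0.39, adjusted p = 0.003074) at ZT16. The ZT8 call was lost without GR LKO replicate 1 (0.06223), 2 (0.05357) or 3 (0.05609), or WT replicate 3 (0.05158). Without WT replicate 1, at 43.7 CPM, the ZT8 change was 4.97.

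At ZT20 on caloric restriction *Hamp2* stood at 10.1, 25.8 and 4.79 CPM in WT and at 26.3, 229 and 28.3 CPM in GR LKO. There 1 GR LKO liver was high and the others lay just above the highest WT liver, and the change was not called (log2 2.80, SE 0.99, adjusted p = 0.1908). At ZT0 the change was not called either (log2 3.08, SE 0.80, adjusted p = 0.165), and it was called without GR LKO replicate 1 (0.02687) and by DESeq2 (0.0278). One fit of all libraries of the diet called it at ZT0 (0.04619) and at ZT20 (0.02591). In none of the 4 sets of 6 time points was *Hamp2* called for time of day, though it was in GR LKO without all libraries of replicate number 2 on caloric restriction (0.02258) and of number 3 on the control diet (0.03645).

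On the control diet *Hamp2* was called at ZT8 and ZT12. At ZT8 it stood at 6.97, 7.09, 4.49 and 4.81 CPM in WT and at 22.2, 19.0, 21.7 and 25.7 CPM in GR LKO. At ZT12 it stood at 6.47, 4.71, 1.13 and 3.07 CPM in WT and at 12.5, 15.4, 56.4 and 23.2 CPM in GR LKO. The genotypes did not overlap at either time, and GR LKO replicate 3 at ZT12 was far above the rest. That liver also had the highest adipocyte marker sum of all libraries, 50.4 CPM against 2.66, 4.21 and 5.12 CPM in the others of its group. Over all libraries this list was led by *Cidec*, with *Plin1* at 0, and its part in the *Hamp2* value was not tested. The log2 change was 1.92 (SE 0.17, adjusted p = 0.001141) at ZT8 and 2.82 (SE 0.59, adjusted p = 0.04811) at ZT12. The ZT8 call was lost in one fit of all libraries of the diet (0.1153), which called the change at ZT0 (0.02352) and ZT20 (0.001609). Without that liver the ZT12 change was 2.17 (adjusted p = 0.07344). The ZT12 call was lost without any 1 of its 8 libraries, with adjusted p from 0.05179 (without GR LKO replicate 1) to 0.1248 (without WT replicate 4), and with a replicate block (0.22). The log2 changes not called by edgeR were 2.27 at ZT0 (SE 0.40, adjusted p = 0.07538), 2.53 at ZT4 (SE 0.58, adjusted p = 0.2132), 1.69 at ZT16 (SE 0.48, adjusted p = 0.1308) and 2.9999 at ZT20 (SE 0.50, adjusted p = 0.05845). DESeq2 called each of them, with adjusted p of 3.41e-07, 0.01977, 0.008691 and 1.766e-07. By edgeR the ZT0 change was called without GR LKO replicate 1 (0.04538) and with no filter (0.04498), the ZT16 change without WT replicate 1, where it was 2.35 (0.02426), and the ZT20 change without GR LKO replicate 3 (0.04975) and with no filter (0.04488).

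Of the 10 members, those called for genotype per time point on caloric restriction numbered 1 at ZT4 against 0.690% of all genes, 1 at ZT8 against 2.55%, 2 at ZT12 against 15.3% and 2 at ZT16 against 4.54%. At ZT0 edgeR called 0 against 0.502%, with 1 below an unadjusted p of 0.05 and 1 called by DESeq2. At ZT20 it called 0 against 1.47%, with 2 below an unadjusted p of 0.05 and 1 called by DESeq2. The members called at ZT12 were *Hamp2* and *Ftl1*, and those at ZT16 *Hamp2* and *Tfrc*.

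Among groups on the control diet, 1 member was called at ZT8 against 1.43% and 1 at ZT12 against 2.08%, *Hamp2* in both. At ZT0 edgeR called 0 against 0.536%, with 5 below an unadjusted p of 0.05 and 3 called by DESeq2. At ZT4 it called 0 against 0.195%, with 2 below an unadjusted p of 0.05 and 1 called by DESeq2. At ZT16 it called 0 against 1.98%, with 3 below an unadjusted p of 0.05 and 1 called by DESeq2. At ZT20 it called 0 against 0.420%, with 5 below an unadjusted p of 0.05 and 2 called by DESeq2.

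Diet and hormone moved *Hamp2* in WT livers as well. With caloric restriction in the diet experiment it went from 18.1, 35.6 and 21.3 CPM in controls to 289, 155 and 137 CPM on caloric restriction. The groups were far apart, and the log2 change was 2.95 (SE 0.37, adjusted p = 0.0009947). In the ZT12 WT livers of the time series, where diet coincides with batch, the difference was smaller. There *Hamp2* had means of 12.8 CPM on caloric restriction and 3.84 CPM on the control diet. In the corticosterone experiment it stood at 7.53, 6.22 and 14.6 CPM in controls and at 1.59, 3.25 and 2.65 CPM with the hormone. All hormone livers lay below all controls and the log2 change was -1.91 (SE 0.40, adjusted p = 0.03138). That call was lost without corticosterone replicate 1 (0.0874) or 3 (0.09188), or control replicate 1 (0.06639), 2 (0.06225) or 3 (0.07292), and with a replicate block (0.05666).

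*Hamp*, the active hepcidin gene, was called in the diet experiment and not between genotypes. In the diet experiment it stood at 295, 399 and 420 CPM in controls and at 555, 776 and 828 CPM on caloric restriction. Caloric restriction lay above control in all livers, and the log2 change was 0.95 (SE 0.19, adjusted p = 0.005622). The summed hepatocyte markers also rose in these livers, as given for *Trf* below, and their part in the *Hamp* change was not tested. In the ZT12 WT livers of the time series, where diet coincides with batch, the sign of the *Hamp* change turned (log2 change -0.34, adjusted p = 0.2781). With corticosterone it stood at 1184, 803 and 1268 CPM against 1342, 1119 and 842 CPM in controls. These groups overlapped (log2 change -0.02, SE 0.22, adjusted p = 0.9692).

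Between genotypes *Hamp* ranged from 457 to 1923 CPM (median 1143) in WT and from 126 to 1618 CPM (median 1203) in GR LKO on caloric restriction. Its range on the control diet was from 560 to 2265 CPM (median 1179) in WT and from 326 to 2182 CPM (median 1016) in GR LKO. The genotypes overlapped on both diets, and the mean log2 change was -0.14 (SE 0.19, adjusted p = 0.6094) and -0.13 (SE 0.12, adjusted p = 0.5331). The lowest value, 126 CPM, came from the GR LKO liver replicate 2 at ZT0 with the highest erythroid sum. In that liver *Hamp2* made up 66.5% of the reads of both genes.

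*Hamp* varied over the day on the control diet. In WT its group mean was highest at ZT12 (1587 CPM) and lowest at ZT8 (715 CPM), a ratio of 2.22 (adjusted p = 0.0006326). In GR LKO it was highest at ZT16 (1677 CPM) and lowest at ZT4 (730 CPM), a ratio of 2.30 (adjusted p = 0.02125), a call lost without all libraries of replicate number 1 (0.07531) or 3 (0.1321). The lowest single value on this diet, 326 CPM, came from a GR LKO liver at ZT20. On caloric restriction the test over time did not pass in WT (adjusted p = 0.1161, and 0.03377 without all libraries of replicate number 1) or GR LKO (adjusted p = 0.1152). In GR LKO it passed where the counts of both copies were summed (0.004811) and without the libraries that stood apart (0.005028). The course in WT differed between diets (adjusted p = 0.01554), a call lost without all libraries of replicate number 3 (0.4189).

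As a description, the genes whose group means most resembled *Hamp* over the 24 time series groups, each diet centred on its own mean, were *BC024978* (r = 0.868), *2610021A01Rik* (0.865), *Gna11* (0.849), *Trabd* (0.843) and *Emd* (0.839). They were the closest of 13375 genes, and groups of a diet share a batch. *Hamp2* was not among them, with r = 0.008 to *Hamp*. In an addition made after its values were seen, *Hamp2* most resembled *Hao2* (0.963), *Cyp2a22* (0.948), *Slc22a26* (0.926), *Klk1b4* (0.925) and *Acaa1b* (0.925).

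The promoters of the copies are shown because the genes moved apart while their sequences are close. RefSeq promoters (GRCm38.p6, 250 bases before to 50 after a start) matched 8 of 10 members with 12 entries, and *Slc40a1* and *Trf* had none. The sequences below hold the 250 bases before the start, on the minus strand at chr7:30944030-30944279 for *Hamp* and at chr7:30924182-30924431 for *Hamp2*. Capitals mark matches to a BMP response element (GGCGCC) and a STAT site (TTCNNNGAA).
Hamp: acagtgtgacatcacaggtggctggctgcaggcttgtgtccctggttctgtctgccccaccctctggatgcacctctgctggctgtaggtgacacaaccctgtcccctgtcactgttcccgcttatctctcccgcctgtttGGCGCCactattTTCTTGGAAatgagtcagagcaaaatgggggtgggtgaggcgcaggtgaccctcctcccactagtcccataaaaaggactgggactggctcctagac
Hamp2: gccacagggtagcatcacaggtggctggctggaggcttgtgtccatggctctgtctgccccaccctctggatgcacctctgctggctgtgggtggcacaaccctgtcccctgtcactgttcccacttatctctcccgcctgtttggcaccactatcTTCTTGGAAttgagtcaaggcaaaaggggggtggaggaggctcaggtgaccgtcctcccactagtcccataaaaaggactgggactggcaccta

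The promoters aligned with 89.72% identity. *Hamp* held the BMP element at -109 and the STAT site at -97 from its start, and *Hamp2* held the STAT site at -94. In place of the BMP element *Hamp2* differed by 1 base, G4A counted from the element's first letter. Searched on both strands of all 32851 promoters, GGCGCC occurred in 11.87%, TTCNNNGAA in 8.298%, the E-box CACGTG in 7.15% and the glucocorticoid response element core AGAACA in 18.97%. AGAACA lay 31 bases after the start of *Hamp* and 34 after that of *Hamp2*, and at -214 of *Hfe*. CACGTG lay at -127 of *Bmp6*, and GGCGCC at -89 of 1 *Tfrc* entry.

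*Bmp6*, the ligand that raises hepcidin when iron is high, was scarce. In the diet experiment it stood at 3.58, 3.32 and 5.93 CPM in controls and at 6.92, 7.95 and 8.71 CPM on caloric restriction. All livers on caloric restriction lay above all controls, and the log2 change was 0.88 (SE 0.23, adjusted p = 0.0177). The call was lost without control replicate 1 (0.06466) or 2 (0.05882), or caloric restriction replicate 2 (0.05255) or 3 (0.05398). Sinusoidal endothelium markers moved with it, with 7 of 8 called up against 47.1% of all genes and a median log2 change of 0.61, and their part was not tested. In bulk liver, a change in the number of cells of a type and a change of RNA per cell cannot be told apart. With corticosterone *Bmp6* stood at 2.80, 4.31 and 3.33 CPM against 7.10, 6.78 and 3.16 CPM in controls, which overlap (adjusted p = 0.249). Genotype gave a mean log2 change of 0.00 on caloric restriction (SE 0.08, adjusted p = 1) and -0.05 on the control diet (SE 0.09, adjusted p = 0.7731).

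*Hfe*, which couples transferrin saturation to hepcidin, showed small changes with diet and genotype. In the diet experiment it stood at 34.3, 32.7 and 34.0 CPM in controls and at 27.2, 29.8 and 26.8 CPM on caloric restriction. It was the member that fell, without overlap (log2 change -0.27, SE 0.07, adjusted p = 0.01637), and the call was lost without control replicate 1 (0.05755) or caloric restriction replicate 3 (0.05516). Without hepatocyte GR it was higher, by 0.24 (SE 0.04, adjusted p = 7.485e-06) on caloric restriction and by 0.20 (SE 0.03, adjusted p = 7.556e-06) on the control diet on the log2 scale. There 16 of 18 and 15 of 20 GR LKO livers lay above all WT livers of their time. One fit of all libraries of the diet called the change at ZT8 (0.03027) and ZT12 (0.01818) on caloric restriction. On the control diet it called the change at ZT0 (0.01393). The fits per time point called none of these. The group mean of *Hfe* was lowest at ZT12 in both genotypes on both diets.

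*Tfr2*, the sensor receptor of hepatocytes, rose with corticosterone. It stood at 168, 140 and 178 CPM in controls and at 216, 239 and 250 CPM with the hormone. The groups did not overlap, and the log2 change was 0.54 (SE 0.12, adjusted p = 0.0367). The call was lost without any 1 of the 6 libraries, with adjusted p from 0.0571 (without corticosterone replicate 2) to 0.12 (without control replicate 2), and with a replicate block (0.07578). Its values in the diet experiment were 216, 200 and 186 CPM in controls and 207, 197 and 188 CPM on caloric restriction, which overlap (adjusted p = 0.8348). The mean genotype change was 0.01 (SE 0.05, adjusted p = 0.9486) and 0.02 (SE 0.04, adjusted p = 0.8381) on the log2 scale. At ZT0 on the control diet it stood at 104, 113 and 119 CPM in WT and at 182, 171 and 138 CPM in GR LKO, all higher (log2 change 0.54, SE 0.12, adjusted p = 0.121). DESeq2 (0.006045) and one fit of all libraries of the diet (0.004255) called it.

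*Tfrc*, the receptor that imports transferrin-bound iron, rose with caloric restriction and had the deepest daily course of the 10 members. In the diet experiment it stood at 15.5, 17.4 and 18.7 CPM in controls and at 33.5, 51.2 and 51.7 CPM on caloric restriction. The groups were clearly apart (log2 change 1.40, SE 0.17, adjusted p = 0.0009876). With corticosterone it stood at 30.6, 29.8 and 13.3 CPM against 46.0, 46.1 and 21.9 CPM in controls, and the groups overlapped (log2 change -0.63, SE 0.38, adjusted p = 0.3479). With a replicate block this difference was called (0.03346).

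Over the day *Tfrc* peaked at ZT16, in the dark phase, in both genotypes on both diets. The ratio of its highest to its lowest group mean was 5.38 in WT (adjusted p = 7.289e-05) and 13.0 in GR LKO (adjusted p = 3.837e-09) on caloric restriction. It was, on the control diet, 3.29 in WT (adjusted p = 0.0002686) and 7.10 in GR LKO (adjusted p = 7.513e-05). At ZT16 on caloric restriction it stood at 67.2, 93.5 and 116 CPM in WT and at 185, 169 and 222 CPM in GR LKO. At ZT8 it stood at 35.4, 42.9 and 21.5 CPM in WT and at 17.8, 19.8 and 12.6 CPM in GR LKO. GR LKO livers lay above all WT livers at ZT16 and below all of them at ZT8. The log2 change was 1.07 (SE 0.19, adjusted p = 0.02472) at ZT16 and, not called, -0.98 (SE 0.27, adjusted p = 0.1204) at ZT8, where DESeq2 (0.003456), a replicate block (0.03062) and one fit of all libraries of the diet (0.0324) did call it. The ZT16 call was lost without GR LKO replicate 1 (0.06537), 2 (0.05374) or 3 (0.09443), or WT replicate 2 (0.07542).

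The genotypes also stood apart in *Tfrc* at ZT4 and ZT20 on caloric restriction and at ZT0 and ZT20 on the control diet, without an edgeR call. At ZT4 on caloric restriction it stood at 33.9, 27.4 and 21.8 CPM in WT and at 11.5, 15.4 and 17.4 CPM in GR LKO, and at ZT20 at 24.8, 62.1 and 43.7 CPM in WT and at 85.0, 69.6 and 88.4 CPM in GR LKO. At ZT20 on the control diet it stood at 23.1, 23.9, 24.6 and 27.0 CPM in WT and at 36.8, 102 and 40.4 CPM in GR LKO. GR LKO livers lay below all WT livers at ZT4 on caloric restriction and above all of them at ZT20 on both diets. On the control diet the GR LKO liver at 102 CPM was far above the others of its group. The log2 changes were -0.91 (SE 0.20, adjusted p = 0.1222), 0.91 (SE 0.30, adjusted p = 0.1707) and 1.28 (SE 0.33, adjusted p = 0.1989), and DESeq2 called each (0.002027, 0.01598 and 0.007899). One fit of all libraries of the diet called both ZT20 changes (0.03468 and 0.018). At ZT0 on the control diet *Tfrc* stood at 21.6, 26.3 and 27.9 CPM in WT and at 28.2, 38.4 and 38.4 CPM in GR LKO, just apart (log2 change 0.46, SE 0.16, adjusted p = 0.2436). At the other times of that diet the genotypes overlapped, with log2 changes of -0.08 at ZT4 (0.977), -0.72 at ZT8 (0.2658), -0.43 at ZT12 (0.3768) and 0.39 at ZT16 (0.4216, and 0.02303 without GR LKO replicate 2).

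The test of genotype by time on caloric restriction called 2 of 10 members, *Tfrc* and *Ftl1*, against 5.34% of all genes. For *Tfrc* the adjusted p was 0.001797, and it was 0.1133 without all libraries of replicate number 1 and 0.05305 without those of number 2. On the control diet the same test by edgeR called 0 against 0.600%, with 2 below an unadjusted p of 0.05 and 2 called by DESeq2, *Tfr2* (0.002991) and *Tfrc* (0.004675). Averaged over the day, the genotype change of *Tfrc* was 0.01 (SE 0.11, adjusted p = 0.9481) on caloric restriction and 0.15 (SE 0.13, adjusted p = 0.4981) on the control diet on the log2 scale.

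**Figure D2:**
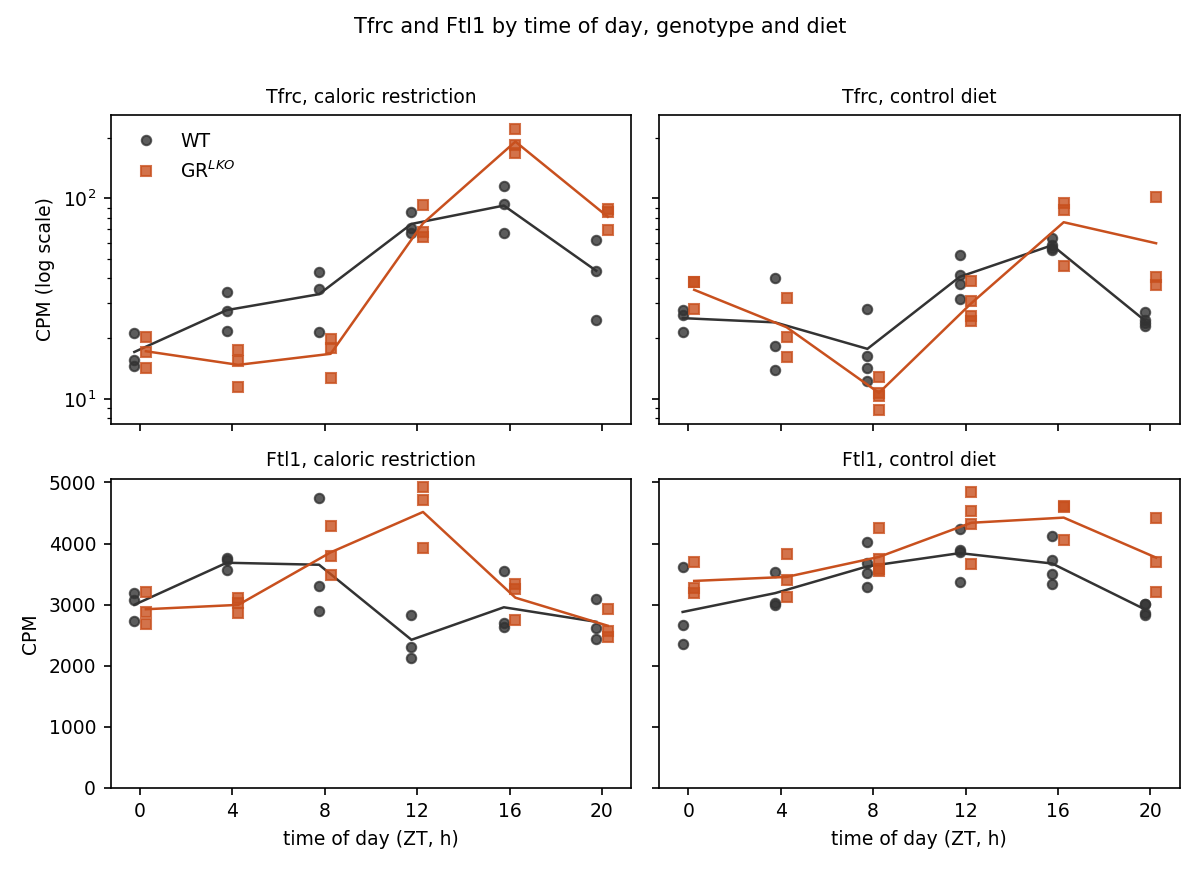
*Tfrc* (log axes) and *Ftl1* (linear axes) in CPM against time of day (ZT, h) on each diet, with 1 point per liver and lines through the group means, in WT (dark circles) and GR LKO (orange squares). On caloric restriction *Tfrc* is higher in GR LKO at ZT16, at 169 to 222 CPM against 67.2 to 116 CPM, and *Ftl1* at ZT12, at 3922 to 4918 CPM against 2131 to 2829 CPM.

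*Trf* encodes transferrin, the iron carrier that the liver secretes. In the diet experiment it stood at 12112, 11816 and 12805 CPM in controls and at 17028, 18209 and 20595 CPM on caloric restriction. Every liver on caloric restriction was above every control (log2 change 0.60, SE 0.09, adjusted p = 0.001979). In the same livers the 7 hepatocyte markers, none at 0 in all libraries, summed to 89090, 88410 and 94620 CPM in controls and to 159160, 160460 and 166740 CPM on caloric restriction. Of them 5 were called (4 up, 1 down), against 47.1% of all genes, with a median log2 change of 0.69, and their part in the *Trf* change was not tested. With corticosterone the groups overlapped (log2 change 0.21, SE 0.15, adjusted p = 0.4266). Genotype gave a mean log2 change of -0.12 (SE 0.05, adjusted p = 0.05856) on caloric restriction, which DESeq2 called (0.03899), and -0.07 (SE 0.04, adjusted p = 0.24) on the control diet. At ZT8 on caloric restriction all GR LKO livers lay below all WT livers, without an edgeR call (log2 change -0.50, SE 0.21, adjusted p = 0.278). One fit of all libraries of the diet called that difference (0.00826). DESeq2 called *Trf* for genotype by time on caloric restriction (0.0426).

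*Ftl1*, the ferritin light chain, carried a genotype difference at ZT12 on caloric restriction. It stood there at 2829, 2131 and 2313 CPM in WT and at 3922, 4712 and 4918 CPM in GR LKO. All GR LKO livers were above all WT livers (log2 change 0.89, SE 0.14, adjusted p = 0.006763). At ZT4 the order was the other way round, with 3728, 3758 and 3570 CPM in WT and 2861, 3024 and 3103 CPM in GR LKO. That difference was not called by edgeR (log2 change -0.30, SE 0.08, adjusted p = 0.163) and was called by DESeq2 (0.001977). For genotype by time the adjusted p was 0.007283, and it was 0.307 without all libraries of replicate number 2 and 0.1214 without those of number 3.

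At the same time point on caloric restriction 5 of 8 Kupffer cell and macrophage markers were called up in GR LKO, against 15.3% of all genes, with a median log2 change of 1.05. They summed to 48.5, 78.2 and 57.0 CPM in WT and to 134, 109 and 139 CPM in GR LKO. The most abundant of them over all libraries was *Clec4f*, none was at 0 in all libraries, and their part in the *Ftl1* difference was not tested. Between the diets, the genotype effect on *Ftl1* at ZT12 differed by 0.73 on the log2 scale (SE 0.17), which edgeR did not call (adjusted p = 0.07454) and DESeq2 did (0.003528). It was called without the WT liver replicate 1 of caloric restriction (0.04554). *Ftl1* on the control diet was higher in GR LKO over the day by 0.21 (SE 0.05, adjusted p = 0.002241), a call lost without all libraries of replicate number 1 (0.1251) or 2 (0.05004). Its values in the diet experiment were 2083, 2139 and 2183 CPM in controls and 1905, 2369 and 2451 CPM on caloric restriction, which overlap (adjusted p = 0.6163). In the ZT12 WT livers of the time series, where diet coincides with batch, its log2 change was -0.66 (adjusted p = 0.004402).

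*Fth1*, the ferritin heavy chain, rose with caloric restriction. It stood at 757, 798 and 690 CPM in controls and at 985, 1030 and 1044 CPM on caloric restriction. There was no overlap (log2 change 0.45, SE 0.08, adjusted p = 0.004011). Over the day it was higher in GR LKO on the control diet by 0.12 (SE 0.03, adjusted p = 0.003583), a call lost without all libraries of replicate number 2 (0.09011) or 3 (0.05291). On caloric restriction the mean genotype change was 0.03 (SE 0.03, adjusted p = 0.5801).

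*Slc40a1*, the ferroportin gene, rose with corticosterone. It stood at 76.3, 79.3 and 82.9 CPM in controls and at 139, 120 and 117 CPM with the hormone. The groups were well apart (log2 change 0.65, SE 0.10, adjusted p = 0.01208), and the call was lost without control replicate 2 (0.06653). In the same livers Kupffer cell and macrophage markers summed to 79.0, 98.5 and 108 CPM in controls and to 114, 161 and 131 CPM with the hormone. Their part in the *Slc40a1* change was not tested. Among livers of the diet experiment *Slc40a1* was 159, 128 and 171 CPM in controls and 116, 174 and 164 CPM on caloric restriction, which overlap (log2 change -0.02, adjusted p = 0.9482). In the ZT12 WT livers of the time series, with diet and batch together, its log2 change was 0.89 (adjusted p = 0.006447). Without hepatocyte GR it was lower over the day on caloric restriction, with a mean log2 change of -0.20 (SE 0.07, adjusted p = 0.02835). That call was lost without all libraries of replicate number 1 (0.1599), 2 (0.07459) or 3 (0.08123). The change on the control diet was -0.10 (SE 0.08, adjusted p = 0.4896). At ZT0 on that diet it stood at 136, 112 and 163 CPM in WT and at 92.6, 81.3 and 93.0 CPM in GR LKO, all lower (log2 change -0.63, SE 0.15, adjusted p = 0.134), which DESeq2 called (0.006274).

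**Figure D3:**
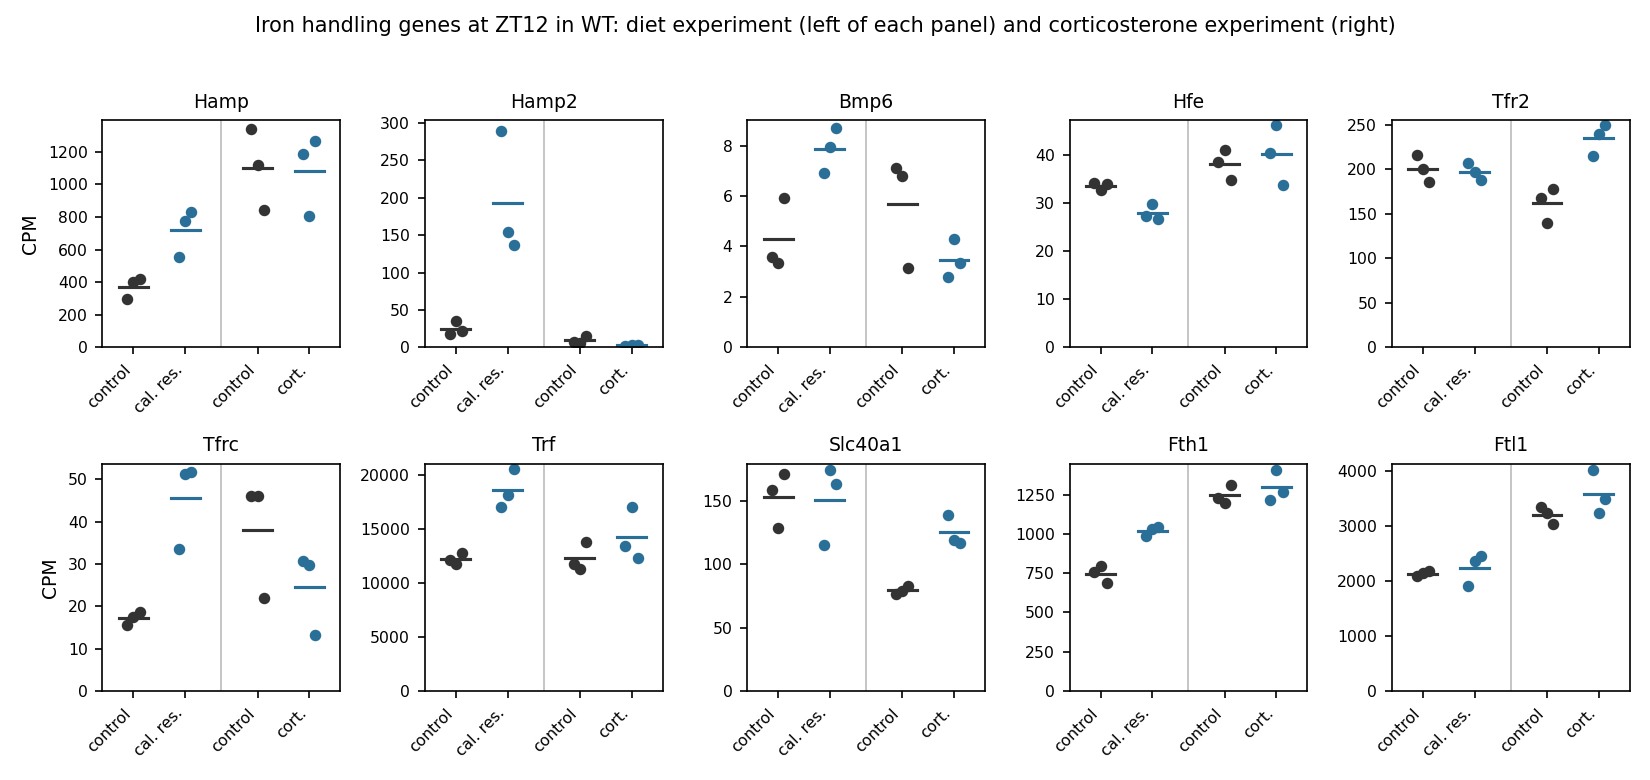
The 10 members in CPM in WT livers at ZT12, with 1 point per liver and bars at group means, for the diet experiment (left of each panel) and the corticosterone experiment (right of each panel). With caloric restriction *Hamp*, *Hamp2*, *Bmp6*, *Tfrc*, *Trf* and *Fth1* were called up and *Hfe* down, against 47.1% of all genes. With corticosterone *Tfr2* and *Slc40a1* were called up and *Hamp2* down, against 8.11%.

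Over the 6 time points, 6 of 10 members were called in WT on caloric restriction against 64.3% of all genes, and 8 of 10 in GR LKO against 60.5%. On the control diet 8 of 10 were called in WT against 50.0% and 5 of 10 in GR LKO against 42% (5231 of 12468 genes). Of those in WT on caloric restriction, the *Ftl1* call (adjusted p = 0.02804) was lost without the libraries that stood apart (0.06503) and without all libraries of replicate number 1 (0.05971), 2 (0.1263) or 3 (0.101), and the *Fth1* call without those of number 1 (0.1254) or 3 (0.05362). In GR LKO on caloric restriction, *Fth1* (0.05908), *Slc40a1* (0.09833) and *Trf* (0.1475) were lost without those of number 3. In WT on the control diet, *Fth1* (0.1785), *Ftl1* (0.2561) and *Slc40a1* (0.08759) were lost without those of number 1, and *Fth1* (0.08434) and *Ftl1* (0.1786) without those of number 2. In GR LKO on the control diet, *Ftl1* and *Trf* were called without the libraries that stood apart (0.01844 and 0.04022), by DESeq2 (0.01838 and 0.005397) and with a 24 h sine and cosine (0.005774 and 0.01638). In WT on caloric restriction *Slc40a1* was called by DESeq2 (0.02931) and with the sine and cosine (0.02505).

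*Tfrc* and *Hfe* were called in all 4 sets, and *Bmp6* too, with its lowest mean at ZT16 in both genotypes on caloric restriction. The *Bmp6* call was lost in WT on caloric restriction with a 24 h sine and cosine (0.4618) and without all libraries of replicate number 1 (0.07262) or 3 (0.2722), and in GR LKO on the control diet without those of number 1 (0.1129) or 3 (0.1738). For diet by time in WT, 7 of 10 were called against 40.1% of all genes. They were *Hamp*, *Tfrc*, *Tfr2*, *Slc40a1*, *Ftl1*, *Hfe* and *Bmp6*. Without all libraries of replicate number 1 the calls of *Slc40a1* (0.2292) and *Bmp6* (0.1688) were lost, without those of number 2 the calls of *Tfrc* (0.19), *Slc40a1* (0.05716) and *Ftl1* (0.1706), and without those of number 3 the calls of *Hamp* (0.4189), *Tfrc* (0.2101), *Slc40a1* (0.1458) and *Bmp6* (0.1236). *Tfrc* was also lost with no filter (0.05497), and *Tfrc* (0.05761) and *Slc40a1* (0.06882) without the libraries that stood apart. The calls of *Tfr2* and *Hfe* held throughout.

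Iron regulatory proteins bind hairpins called iron responsive elements in some of these transcripts, at the 3′ end of *Tfrc* and the 5′ end of ferritin and ferroportin transcripts. The sites are shown because *Tfrc*, *Ftl1*, *Fth1* and *Slc40a1* all hold one, and a difference in course between these genes was not tested. A pattern of C, 5 bases, CAGTGN and 5 bases that pair with the first 5, chosen after the values were seen, was searched in GENCODE M21 transcripts (GRCm38). It occurred in 272 of 21899 protein-coding genes (1.242%) and in 4 of 10 members. Capitals mark the loop.
Tfrc site at chr16:32631222-32631244: tatcggaagCAGTGCcttccata
Tfrc site at chr16:32631601-32631623: tatcgggagCAGTGTcttccata
Tfrc site at chr16:32631666-32631688: tatcggagaCAGTGAtctccata
Tfrc site at chr16:32631713-32631735: tatcgggaaCAGTGTttcccata
Slc40a1 site at chr1:45925468-45925490: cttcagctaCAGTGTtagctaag
Fth1 site at chr19:9982735-9982757: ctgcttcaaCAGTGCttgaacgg
Ftl1 site at chr7:45459782-45459804: ttgcttcaaCAGTGTttgaacgg

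Other iron genes were followed as 7 lists. With caloric restriction in the diet experiment, 14 of 19 tested genes of BMP-SMAD control of hepcidin were called (12 up, 2 down), with a median log2 change of 0.44, where 47.1% of all genes were called. The same share stands beside the counts that follow, of which those for uptake and for ferritin turnover were near it and that for iron-sulfur genes below it. *Atoh8*, a transcription factor of the BMP response, rose by 3.52 (SE 0.21, adjusted p = 0.0001041) and the BMP target *Id1* by 2.18 (SE 0.14, adjusted p = 0.0001291). Of 8 other inputs to hepcidin 7 were called (5 up, 2 down, median 0.71), among them the coactivator *Ppargc1a* at 1.94 and the IL-6 receptor *Il6ra* at 1.60. Of 16 genes of haem synthesis and breakdown 14 were called (4 up, 10 down, median -0.43), with the erythroid haem enzyme *Alas2* at -2.89. The haem exporter *Flvcr1*, which was scarce, was up by a factor of 4.01, with means of 0.739 CPM in controls and 2.97 CPM on caloric restriction. Of 14 uptake genes 8 were called (3 up, 5 down), with the ferritin receptor *Scara5* at -1.92 and the metalloreductase *Steap4* at -1.68. Of 5 genes of oxidation, chaperones and ferritin turnover 2 were called, both up, the iron chaperone *Pcbp2* at 1.25 and the ferritin turnover receptor *Ncoa4* at 1.08. Of 3 genes listed around the iron regulatory proteins 2 were called, *Ireb2* at -0.46 and *Fbxl5* at 0.29. Of 16 iron-sulfur genes 6 were called (1 up, 5 down), with *Ciapin1* at -0.55 and *Glrx5* at -0.54.

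With corticosterone, where 8.11% of all genes were called, 3 of 19 genes of BMP-SMAD control were called (2 up, 1 down), with the liver protein *Fgl1*, a binder of BMPs, at 2.68 (SE 0.34, adjusted p = 0.006957) and the BMP co-receptor *Hjv* at -0.95 (SE 0.22, adjusted p = 0.04616). Of 8 other inputs 4 were called (3 up, 1 down), with the activin chain *Inhbb* at 3.95 and *Il6ra* at 1.82. *Inhbb* was scarce, with means of 0.246 CPM in controls and 3.93 CPM with the hormone. Of 14 uptake genes 5 were called, all up, with the siderophore binder *Lcn2* at 6.97 (SE 0.42, adjusted p = 0.0009159) and *Scara5* at 2.92. Of 16 haem genes 1 was called, *Alas1*, the first enzyme of haem synthesis in liver, at 1.93, a share near that of all genes.

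Without hepatocyte GR, *Lcn2* and *Scara5* were lower on both diets. The mean log2 change of *Scara5* was -3.71 (SE 0.73, adjusted p = 0.0002617) on caloric restriction and -2.71 (SE 0.24, adjusted p = 1.436e-10) on the control diet. That of *Lcn2* was -2.20 (SE 0.41, adjusted p = 0.0001201) and -1.69 (SE 0.36, adjusted p = 0.0006479). In the uptake list 8 of 14 were called on caloric restriction (2 up, 6 down) and 6 of 14 on the control diet (1 up, 5 down), against 32.9% and 18.6% of all genes. *Il6ra* was lower by log2 changes of -0.94 and -0.89. The ferroxidase *Cp* was lower by -0.64 and -0.39. All 3 genes listed around the iron regulatory proteins were called up on both diets, with *Ireb2* at 0.28 and 0.21.

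In BMP-SMAD control 6 of 19 were called for genotype on caloric restriction (2 up, 4 down, median -0.07) and 4 of 19 on the control diet (2 up, 2 down, median -0.04), close to the 32.9% and 18.6% of all genes. Of 16 haem genes 9 (6 up, 3 down) and 6 (5 up, 1 down) were called, with *Alas2* at 1.25 on caloric restriction and *Hmox1*, which degrades haem, at 0.79 on the control diet. Of 16 iron-sulfur genes 4 were called on each diet, below and near those shares. The genotype effect differed between diets for *Alas2* by 0.68 (adjusted p = 0.0008143), *Steap4* by 0.39 (0.01798), *Ncoa4* by -0.21 (0.03709) and *Ciapin1* by -0.33 (0.009499).

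Markers of liver cell types moved with diet, as given above, with corticosterone and with genotype. With corticosterone, beside the Kupffer cell markers given above, sinusoidal endothelium markers summed to 135, 157 and 161 CPM against 164, 163 and 202 CPM in controls. Neutrophil markers summed to 1.89, 1.79 and 1.43 CPM against 0.0717, 0.559 and 0.549 CPM. Between genotypes, hepatocyte markers were called down for 6 of 7 on caloric restriction and 5 of 7 on the control diet, against 32.9% and 18.6% of all genes. GR was deleted in the hepatocytes themselves, so lower marker levels do not by themselves show fewer hepatocytes. Sinusoidal endothelium markers were called up for 7 of 8 on caloric restriction, against the same 32.9%, with a median log2 change of 0.18. On the control diet their median was -0.02, and their sums overlapped between genotypes at every time point. Over all libraries the hepatocyte markers summed to between 69087 and 171610 CPM, the endothelial markers, led by *Fcgr2b*, to between 134 and 389 CPM, and the Kupffer cell markers to between 47.1 and 336 CPM. Stellate cell markers, led by *Dcn*, summed to between 90.0 and 472 CPM, cholangiocyte markers, led by *Spp1*, to between 22.9 and 150 CPM and adipocyte markers, led by *Cidec*, to at most 50.4 CPM. Lymphocyte markers, led by *Cd79b*, reached at most 9.65 CPM and neutrophil markers, led by *S100a9*, at most 3.75 CPM.

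Adipocyte markers, in effect *Cidec* alone, also separated the genotypes on caloric restriction. They summed there to between 0.173 and 1.89 CPM in WT and to between 1.17 and 13.6 CPM in GR LKO, with every GR LKO liver above every WT liver of its time. Among livers on the control diet the sums overlapped at ZT12 and ZT16. Of the 4 markers only *Cidec* was abundant enough to be tested, and its mean log2 change was 2.66 (SE 0.18, adjusted p = 7.012e-12) on caloric restriction and 2.71 (SE 0.36, adjusted p = 6.509e-07) on the control diet. *Plin1* was at 0 in all libraries, and *Adipoq* had means of 0.0979 (GR LKO) and 0.0285 CPM (WT) on caloric restriction. A sum that rests on *Cidec* does not by itself show a difference in adipocytes. The part of the marked cell types in the members' changes was not tested.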

How the data were processed

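The authors deposited estimated counts per gene, made with Salmon and summed to genes, for mouse liver polyA RNA-seq. The submitters' processing notes name FastQC, MultiQC, Salmon and the build mm10, and the transcript annotation is not given in the sources used here. Of 27654 gene IDs, 27244 matched a symbol and 410 did not. Counts were rounded, scaled with TMM and tested with edgeR 4.0.16 (R 4.3.3) quasi-likelihood F tests after filterByExpr at a minimum count of 10, with Benjamini-Hochberg adjustment over all genes tested and calls below 0.05. Genotypes were compared per time point and as a mean over 6 time points, and courses by F tests over the time points. DESeq2 1.42.0 served as an alternative, beside RLE scaling, no filter, a replicate block, summed copies, a 24 h sine and cosine, and leaving libraries out. The fits were also tried on simulated data, and no outcome of that is given here. Promoters came from RefSeq and transcripts from GENCODE M21.

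The members and lists were chosen with earlier results of these data known. Named genes are the 10 members, the deleted gene, at most 2 genes per list and comparison with the largest log2 change among those called with at least 1 CPM in a group, and the 5 genes most like *Hamp*. Also named are the 5 genes most like *Hamp2*, the most abundant marker of each cell type, *Plin1* and *Adipoq*. The likeness of *Hamp2*, the hairpin pattern and the fit without 4 libraries that stood apart were chosen after seeing the data. Of 102 pairs of libraries compared for duplication, 0 were identical.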

Additional observations from a re-analysis of the deposited data

Results flagged for a closer look

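In a few groups of 4 livers a single value lay far from the others, measured as its gap to the nearest value over the group's range. *Tfr2* was high in the WT liver replicate 3 at ZT16 on the control diet (0.911). *Trf* was high in the WT liver replicate 3 at ZT8 on the control diet (0.841), and *Bmp6* was low in replicate 2 of the same group (0.918). Chance flags about 1 in 20 groups, and 3 of 60 stood out here.

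Some effects differed between groups by a test of the difference itself. The genotype effect on *Hamp2* differed between the diets (adjusted p = 0.0469), a call lost without all libraries of replicate number 1, 2 or 3. The daily course differed between genotypes on caloric restriction for *Tfrc* (adjusted p = 0.0018) and *Ftl1* (adjusted p = 0.00728). The daily course in WT differed between the diets for *Hamp* (adjusted p = 0.0155), *Tfrc* (0.0385), *Tfr2* (0.00117), *Slc40a1* (0.0265), *Ftl1* (0.0164), *Hfe* (9.04e-06) and *Bmp6* (0.0183). These were 7 of 10 members against 40.1% of all genes, and each diet has its own batch. Apart from those of *Hfe* and *Tfr2*, every call in this paragraph was lost in some fit without a replicate number.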

How the results depend on the processing

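The counts of members called moved under some settings, and the cause was not tested. Genotype effects by time point on caloric restriction (6 as reported) came to 11 with DESeq2, 2 with both copies summed and 13 in one fit of all libraries of the diet. Those on the control diet (2) came to 9 with DESeq2, 4 with no filter, 0 with copies summed and 6 in one fit. Summing the copies removes *Hamp2* as a gene of its own. The genotype by diet interaction over the day (1) came to 0 with no filter, with copies summed and without the libraries that stood apart, and that at ZT12 (0) to 1 with DESeq2. Genotype by time on the control diet (0) came to 2 with DESeq2. *Hamp* in the diet comparison reversed to -0.3422 in time series libraries, where diet and batch coincide, and *Slc40a1* (0.006447) and *Ftl1* (0.004402) were called there.

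Leaving out replicates gave 5 to 7 for diet, 0 to 2 for corticosterone, 5 to 7 and 1 to 3 for genotype by time point on caloric restriction and the control diet, 2 to 2 and 2 to 3 for the mean genotype effects, 0 to 0 and 0 to 1 for the interactions over the day and at ZT12, 3 to 5 and 5 to 9 for time of day in WT and GR LKO on caloric restriction, 5 to 8 and 3 to 5 on the control diet, 0 to 1 and 0 to 0 for genotype by time, and 3 to 5 for diet by time.

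With a replicate block the counts were 7 for diet, 2 for corticosterone, 7 and 1 for genotype by time point, 3 and 4 for the mean genotype effects, 1 and 0 for the interactions, 6, 8, 8 and 5 for time of day, 2 and 0 for genotype by time and 7 for diet by time. Replicate numbers gave little sign of pairing, since 2 of 44 pairs in 14 comparisons had r over 0.1 (range -0.1224 to 0.187) and 0 comparisons had all pairs over it. This cut cannot exclude pairing in a single comparison.

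Over 82 results, the members' calls and their diet and corticosterone differences under another prior count, 393 repeats under other settings kept the direction (and the call, where there was one), 11 lost the call and 1 reversed, and of repeats without a library or replicate 168 kept it, 76 lost it and 0 reversed. Groups of 3 or 4 livers and *Hamp2* and *Bmp6* levels of a few CPM limit precision. Diet cannot be separated from batch in the time series.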
